A study of Mus musculus with 6 samples.

Results

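Cell cycle inhibitor genes were read across the cells of a mouse lymph node sort. The genes were Cdkn2a, Cdkn2c, Cdkn2d, Cdkn1a, Cdkn1b and Trp53, which are 6 of the 32287 features of the deposited gene matrix. They were taken as a family of CDK inhibitor genes and their regulator p53, and the family was selected on 1 measured pattern, the high level of Cdkn2a in medullary sinus macrophages. The level of Cdkn2a in those cells against other myeloid cells is therefore given below as a description without a p, and so are the other 5 genes in that comparison.

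The study sorted CD11b hi TOM + cells from lymph nodes of Cd169Cre/+.Tdtomatofl/fl (CD169Tom) mice on a C57BL/6J background, all over 6 weeks of age. In these mice Cre recombinase is made from the Siglec1 (Cd169) locus, so a cell that has once switched this gene on keeps the red label, as does its progeny, and the label does not show that a cell still expresses CD169. 2 mice were unimmunized and 2 were taken 9 days after immunization with hen egg lysozyme (HEL). For HEL, the study's methods describe a conjugate with an ovalbumin peptide in Sigma Adjuvant System, given after transfer of antigen-specific B and T cells. Their account of this sort does not restate the antigen, adjuvant or transfer. Cells of each mouse carried a hashtag of their own, were pooled, and were split over 2 captures that read RNA and antibody tags together. A mouse is the replicate, so each condition had n = 2.

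After removal of cells without a clear hashtag, 12139 cells were kept, from 537 cells in unimmunized mouse 2 to 4722 in immunized mouse 2, and the median depth per mouse was 5877 to 12728 unique molecular identifiers (UMIs) per cell. Cells were gated by marker genes into 13 types, 9 myeloid and 4 lymphoid, and a type was named "-like" for its markers. The myeloid types included tingible body macrophage-like (TBM-like), monocyte-derived dendritic cell-like (moDC-like), type 1 conventional dendritic cell-like (cDC1-like) and migratory dendritic cell-like (migratory DC-like) cells. None of the 13 gates was for subcapsular sinus macrophages, which the study lists among the populations of this sort, so a ranking of the gated types leaves them out. In all, 7580 cells fell into 1 type, 2131 into none and 2428 into more than 1, and 858 of the gated cells, 8 of them in the macrophage gate described next, passed the margin between types only narrowly. The medullary sinus macrophage-like (MSM-like) gate used Marco, Cd209b, Cd209f, Cd209g, Timd4 and Cd5l and held 504 cells, with only 30 in unimmunized mouse 2 and 16 in immunized mouse 2. Levels are CPM, the UMIs of a gene divided by all UMIs of the same cells of 1 mouse and multiplied by 1000000, and a mouse enters a type only with 10 or more cells.

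These genes hold the brake of the cell cycle. Cyclin-dependent kinases (CDK) bound to D-type and E-type cyclins phosphorylate the retinoblastoma protein and release E2F factors, which drive the genes of DNA replication. The INK4 proteins, encoded by Cdkn2a (p16), Cdkn2c (p18) and Cdkn2d (p19), bind CDK4 and CDK6 and block them, whereas the CIP/KIP proteins, encoded by Cdkn1a (p21) and Cdkn1b (p27), act mainly on cyclin E and cyclin A complexes with CDK2. Cdkn2a also encodes ARF, which holds back the ubiquitin ligase MDM2 and so lets p53, the product of Trp53, accumulate and switch on Cdkn1a. A high level of Cdkn2a RNA is known from senescent cells, but also from macrophages that are not senescent.

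The Cdkn2a gene lies on the minus strand of chromosome 4, at 89274471 to 89294653 of GRCm38 (mm10) in the GENCODE annotation. Its 2 protein products start in different first exons, at 89281986 to 89282192 for p16 and at 89294334 to 89294653 for ARF, and both splice into the same second exon at 89276645 to 89276985. Each junction is shown as the last 15 bases of the first exon in lower case and the first 15 bases of the shared second exon in capitals.
p16 transcript (Cdkn2a-201): cgtaccccgattcagGTGATGATGATGGGC
ARF transcript (Cdkn2a-202): ggaatcctggaccagGTGATGATGATGGGC
The capitals are the same letters in both. The first exon gives 126 coding bases to p16, a multiple of 3, and 190 to ARF, which leaves 1 base over, so the shared exon is read in different frames. The libraries were primed at the 3′ end, and both transcripts end in the same last exon, so a Cdkn2a count here does not tell p16 from ARF. None of the 6 genes overlapped another counted gene on either strand.

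Of the 13 gated types, Cdkn2a was highest in MSM-like cells. Its level there was 96.3 and 237 CPM in the unimmunized mice and 95.02 and 171 CPM in the immunized mice, a mean of 150 ± 68.0 CPM (SD, n = 4), and it rested on 149 UMIs. No mouse of any other gated type reached the lowest of these values. Neutrophil-like cells came next with 63.5 CPM in unimmunized mouse 1 and 52.1 CPM in immunized mouse 1, from 14 UMIs. Migratory DC-like cells had 40.0 and 26.0 CPM in the unimmunized mice and 53.9 and 23.8 CPM in the immunized mice. NK-like cells had 34.5 and 38.1 CPM against 42.9 and 9.67 CPM, which overlaps the migratory DC-like values, so the order of these 2 types is within the spread between mice. Gamma-delta T-like cells followed with 29.8 and 38.4 CPM against 15.7 CPM and no UMI in immunized mouse 2, where a count of 0 allows up to 35.5 CPM. The lowest means were in cDC1-like cells, 4.66 ± 4.10 CPM (SD, n = 4), moDC-like cells, 4.56 ± 3.53 CPM (SD, n = 3), and nonclassical monocyte-like cells, 6.01 ± 7.68 CPM (SD, n = 4). These 3 and the classical monocyte-like cells, 6.38 ± 6.03 CPM (SD, n = 4), were not separated by their spread.

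**Figure D1:**
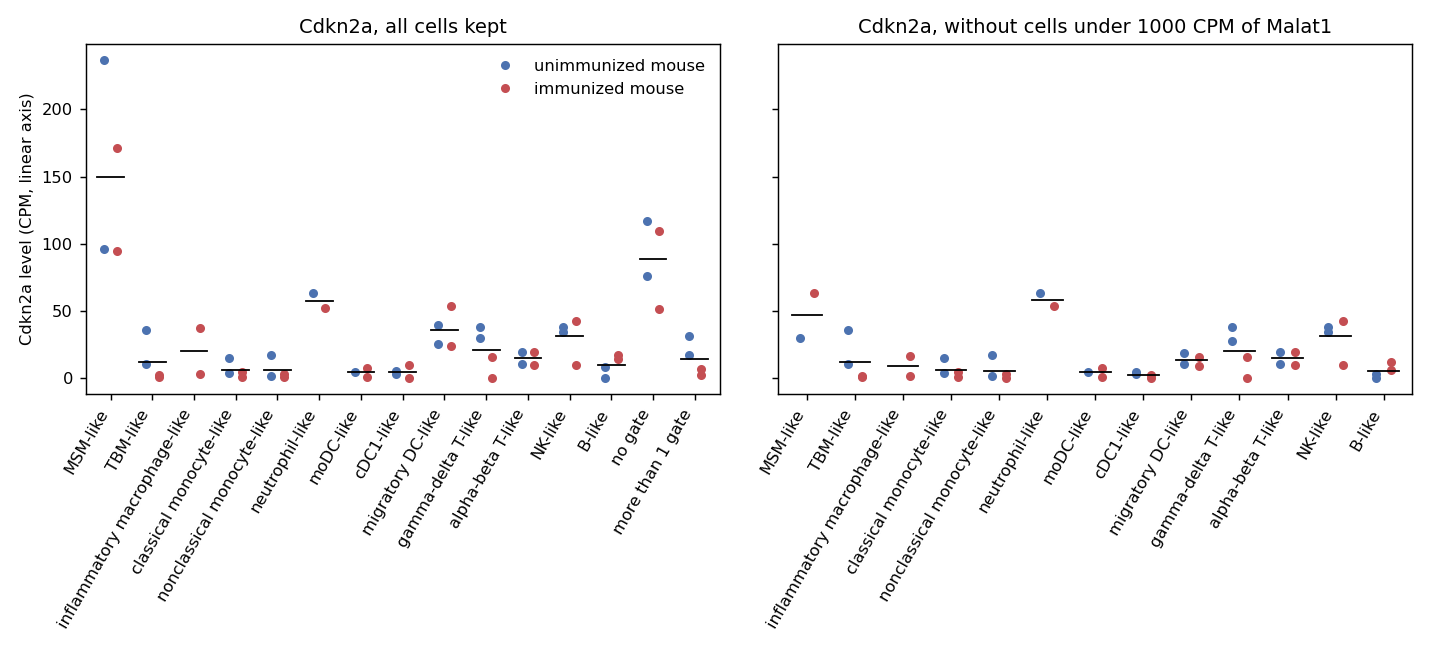
Level of Cdkn2a (CPM, linear axis) in each gated type and in cells of no gate or more than 1 gate, with 1 point per mouse (blue unimmunized, red immunized) and a bar at the mean. In all cells kept (left) the 4 MSM-like points lie between 95.02 and 237 CPM and the cells of no gate between 51.5 and 117 CPM, and without cells under 1000 CPM of Malat1 (right) the 2 MSM-like points left are at 30.4 and 63.4 CPM.

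The cells in no gate had the next highest Cdkn2a after the MSM-like cells and held more of its RNA. Their level was 76.2 and 117 CPM in the unimmunized mice and 109 and 51.5 CPM in the immunized mice, which overlaps the MSM-like range and was lower than the MSM-like value in 3 of 4 mice. They carried 1072 of the 2263 Cdkn2a UMIs of all cells kept, against 149 in the MSM-like cells. So Cdkn2a was highest in MSM-like cells among the gated types, while most of its RNA in the sort lay outside that gate.

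Most of the Cdkn2a RNA lay in cells with very little Malat1, a long noncoding RNA that stays in the nucleus. The cells fell into 2 sets by Malat1, with 1678 under 1000 CPM and only 105 between 1000 and 2000 CPM, and the limit of 1000 CPM was chosen after these values were seen. Of the MSM-like cells, 87.5% were Malat1-low, against 24.6% of migratory DC-like cells and 44.2% of the cells of no gate. In the other 11 types the share was 0% to 8.21%. Malat1-low cells outside the MSM-like gate were 10.2% of all cells and 4.35% of all UMIs, but they held 1315 Cdkn2a UMIs, 58.1% of the total.

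Cdkn2a in these Malat1-low cells outside the MSM-like gate was at 238 and 326 CPM in the unimmunized mice and at 229 and 268 CPM in the immunized mice. Malat1-low MSM-like cells were at 120 and 246 CPM in the unimmunized mice and at 103 and 216 CPM in the immunized mice. The 2 ranges overlap, and in each of the 4 mice the cells outside the gate had the higher value. Malat1-high cells outside the gate were at 20.3 and 11.2 CPM in the unimmunized mice and at 8.23 and 1.98 CPM in the immunized mice, below every value of the Malat1-low classes. Malat1-high MSM-like cells were few, 63 in all, and entered in 2 mice, at 30.4 CPM in unimmunized mouse 1 and 63.4 CPM in immunized mouse 1, from 13 UMIs. The 95% Poisson intervals of those 2 values, which cover counting error only, were 11.2 to 66.2 CPM and 25.5 to 131 CPM.

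**Figure D2:**
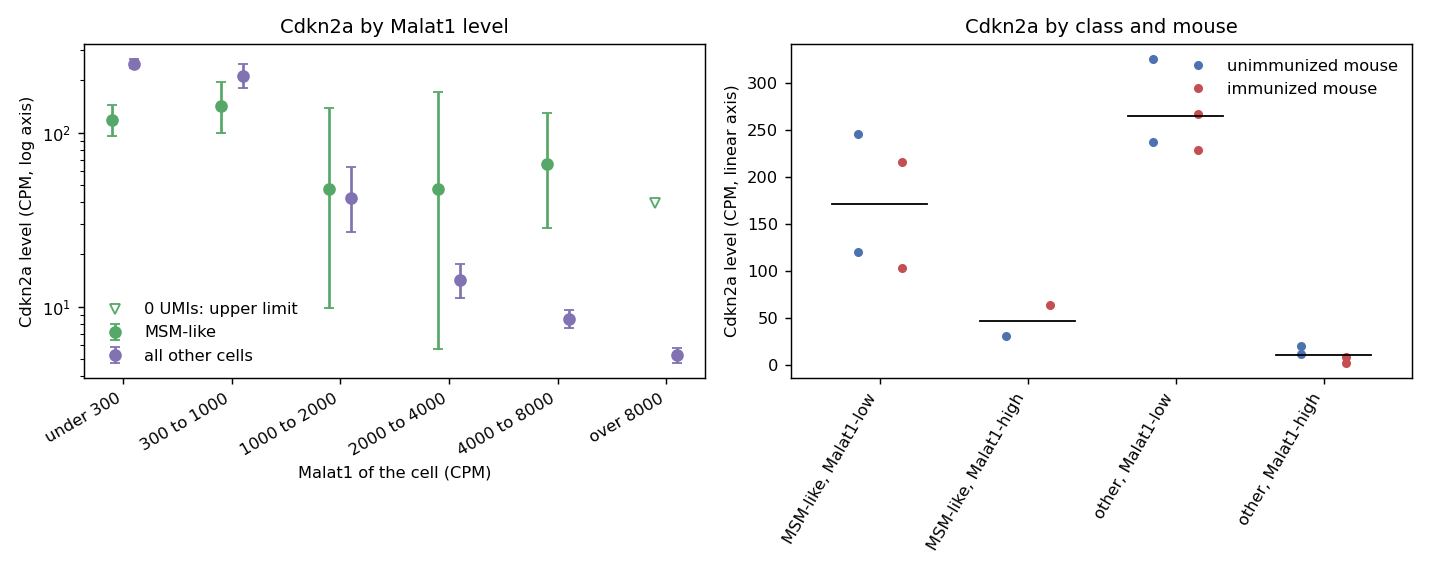
Left, level of Cdkn2a (CPM, log axis) in cells binned by their Malat1 level, for MSM-like cells and all other cells, with all mice summed and 95% Poisson intervals for counting error; the open triangle is the upper limit where no UMI was found. Outside the gate the level falls from 250 CPM under 300 CPM of Malat1 to 5.26 CPM over 8000 CPM. Right, the same by class with 1 point per mouse and a bar at the mean (CPM, linear axis), where the Malat1-low classes lie between 103 and 326 CPM.

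Leaving out all Malat1-low cells lowered Cdkn2a in the types that held them. In MSM-like cells the 2 mice with 10 or more cells left went from 96.3 to 30.4 CPM (unimmunized mouse 1) and from 95.02 to 63.4 CPM (immunized mouse 1), and they were the 2 with the lowest levels before. As a mean over the same mice, migratory DC-like cells went from 35.9 to 13.9 CPM and inflammatory macrophage-like cells from 20.5 to 8.99 CPM. NK-like cells went from 31.3 to 31.4 CPM, and neutrophil-like cells were at 58.6 CPM, within the MSM-like range of 30.4 to 63.4 CPM. In migratory DC-like cells 225 of 324 Cdkn2a UMIs, 69.4%, were in Malat1-low cells. Whether the low nuclear RNA bears on the Cdkn2a level was not tested.

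The Malat1-low cells outside the MSM-like gate did not carry the MSM-like markers at MSM-like levels. Their 6 MSM-like markers summed to 161 CPM, with 790 of 1237 cells at 0, against 6307 CPM in Malat1-low MSM-like cells and 19.1 CPM in Malat1-high cells outside the gate. Their leading genes against all Malat1-high cells were Prg3 (592 against 22.3 CPM), 1300017J02Rik (431 against 12.9 CPM), Il22ra2, which encodes a soluble receptor that binds interleukin-22 (484 against 18.01 CPM), Cd200, a ligand of an inhibitory receptor on myeloid cells (436 against 16.3 CPM), and Pla2g2d, a secreted phospholipase (402 against 15.9 CPM). Cdkn2a was the 7th gene of that ranking. Pla2g2d was also the 9th leading gene of Malat1-low MSM-like cells, at 514 CPM, so it did not set these classes apart. The list ranks cells that were picked with Cdkn2a in view, so it is a description with no test, and no cell type is named from it. Of the gate marker lists, only that of migratory DC-like cells had a median above 0 in these Malat1-low cells. The median was 324 CPM, with 395 of 1237 cells at 0, against 65.6 CPM in Malat1-high cells outside the gate. Summed, that list was at 456 and 439 CPM. Of these Malat1-low cells, 208 were in the migratory DC-like gate, which used those markers, and 943 in no gate.

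Antibody tags gave a readout that neither the gate nor the Malat1 limit used. Values are centred log ratios, the natural log of a tag count plus 1 less the mean over the 6 antibodies in the same cell, averaged per mouse. The F4/80 tag was lower in Malat1-low cells outside the MSM-like gate, at -1.002, -1.23, -1.35 and -1.14 in unimmunized mice 1 and 2 and immunized mice 1 and 2. In Malat1-low MSM-like cells it was at -0.13, -0.62, -0.20 and -0.11, with no overlap between the classes. The CD68 tag was also lower outside the gate, at -0.14, 0.10, -0.26 and -0.23 against 0.45, 0.69, 0.46 and 0.59. The CD169 tag was the other way round, at 1.24, 1.13, 0.76 and 0.49 outside the gate against 0.75, 0.79, 0.26 and 0.18 in MSM-like cells, higher in each of the 4 mice. In Malat1-high cells outside the gate it was at 0.86, 0.40, -0.40 and -0.72. The CD11c tag was higher outside the gate, at 0.47, 0.42, 1.30 and 1.33 against -0.34, 0.12, -0.05 and -0.13, with no overlap. Because values are centred within a cell, a higher tag lowers the others, but the median tag counts went the same way in each mouse. So the 2 Malat1-low sets, both high in Cdkn2a, differed in F4/80, CD68 and CD11c, and the one outside the gate had the higher CD169 tag.

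**Figure D3:**
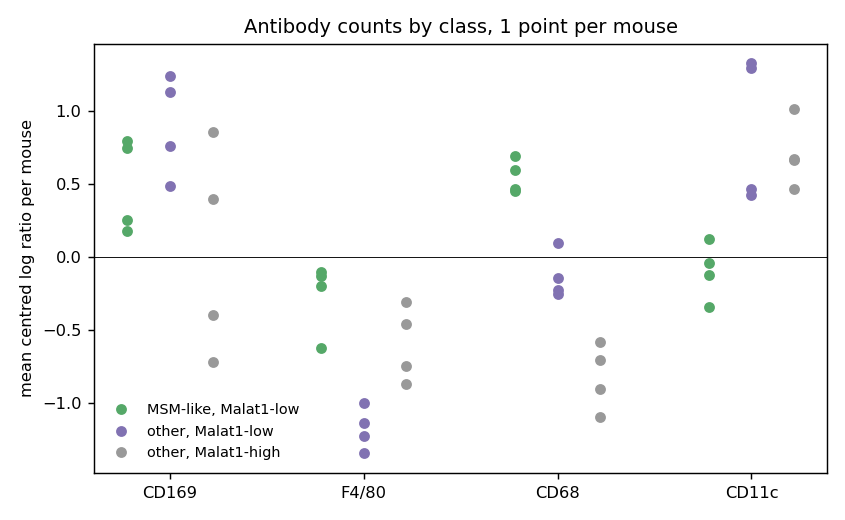
Mean centred log ratio of 4 antibody tags in 3 classes of cells, with 1 point per mouse; values compare an antibody between classes, not antibodies with each other. The F4/80 points of Malat1-low cells outside the MSM-like gate lie between -1.35 and -1.002, below all MSM-like points.

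The classes also differed in depth and in mitochondrial RNA. Malat1-low MSM-like cells had a median of 2074 UMIs and 2.75% mitochondrial UMIs, Malat1-low cells outside the gate 3966 UMIs and 0.622%, and Malat1-high cells outside the gate 10860 UMIs and 3.71%. To remove the difference in depth, each cell was thinned to 1000 UMIs. A Cdkn2a UMI was then present in 9.61% of 437 Malat1-low MSM-like cells (exact 95% binomial interval 7.01% to 12.8%) and in 19.4% of 1235 Malat1-low cells outside the gate (17.3% to 21.8%). In Malat1-high cells outside the gate it was present in 0.818% of 10396 cells (0.654% to 1.01%). These intervals pool the cells of all mice and cover counting error only. By mouse, the share in Malat1-low MSM-like cells was lowest at 6.90%, and its highest value was above 16.9%. In Malat1-low cells outside the gate it was 16.9% to 35.9%, so these ranges overlap. In Malat1-high cells outside the gate it was 0.202% to 1.96%, below both ranges. Of the gated types, TBM-like cells had the lowest share, with 0 of 370 cells, which allows a share of up to 0.992%. Next came moDC-like cells, with 0.273% of 367 (0.0069% to 1.51%), and classical monocyte-like cells, with 0.323% of 2164 (0.130% to 0.665%). Nonclassical monocyte-like cells had 0.339% of 885 (0.0700% to 0.987%), and the intervals of these types overlap. TBM-like and classical monocyte-like cells had medians of 13680 and 11420 UMIs before thinning. Free RNA was not measured. Without thinning the shares of the 3 Malat1 classes, in the order above, were 17.0%, 47.7% and 5.02%. Those of TBM-like, moDC-like, classical and nonclassical monocyte-like cells were 2.97%, 2.45%, 2.36% and 3.50%, so TBM-like cells were then not the lowest. Of the 370 TBM-like cells, 106 and 235 came from immunized mice 1 and 2. Single cells outside the gate held up to 19 Cdkn2a UMIs, and 325 of the 1237 Malat1-low cells there held 2 or more.

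Genes whose level followed Cdkn2a most closely were mostly those of the Malat1-low cells outside the gate. Over the 47 libraries of 1 type in 1 mouse, the 8 genes with the highest Pearson r of log2(CPM + 1) among 7773 genes that were not gate markers were 2900052N01Rik (0.85), Prg3 (0.84), Slc9a3r2 (0.84), Cd200 (0.83), Mcoln2 (0.81), 1300017J02Rik (0.81), Fxyd2 (0.78) and Il22ra2 (0.78). Of these 8, 6 were among the 12 leading genes of the Malat1-low cells outside the gate. The libraries held the Malat1-low cells of the gated types, and Cdkn2a was itself among those 12 genes. The overlap was therefore partly built in, and nothing is read from it. Without the MSM-like libraries r stayed between 0.68 and 0.81. The libraries share mice and captures, and the low levels depend on depth, so these values carry no p. The other 5 inhibitor genes had lower r than these 8, between -0.31 for Trp53 and 0.09 for Cdkn1a. Without the MSM-like libraries Cdkn1b went from -0.16 to 0.33 and Cdkn2d from -0.03 to 0.27.

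In MSM-like cells the other 5 genes did not share one direction. The difference from the mean of the other myeloid types was fitted with edgeR across 11629 genes, of which 29.2% passed an adjusted p of 0.05. This comparison selected the family, so its values are a description. The log2 difference was 3.43 (SE 0.44) for Cdkn2a, and 2.34 (SE 0.67) without the Malat1-low cells. It was 2.55 (SE 0.50) for Cdkn2c and -0.96 (SE 0.27) for Cdkn1b, and of the 5 genes other than Cdkn2a these 2 were among the 29.2%, a count from which nothing is read. The other 3 values were -0.20 (SE 0.47) for Cdkn2d, -0.61 (SE 0.45) for Cdkn1a and -0.29 (SE 0.22) for Trp53. Without the Malat1-low cells 240 genes passed in place of 3390.

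Cdkn2c, the INK4 gene of p18, was at 24.4 and 29.6 CPM in MSM-like cells of the unimmunized mice and at 24.6 CPM in immunized mouse 1. Immunized mouse 2 had no Cdkn2c UMI in its 16 MSM-like cells, which allows up to 64.1 CPM. The other myeloid types had means of 0 to 14.2 CPM, with cDC1-like cells the highest at 12.2 to 16.1 CPM. The 2 neutrophil-like libraries held no Cdkn2c UMI and pulled the fitted difference up: without them it was 1.58 (SE 0.35). Without the Malat1-low cells it was 1.73 (SE 0.79), from 6 UMIs in Malat1-high MSM-like cells. Without immunized mouse 1 it was -1.91 with an SE of 2377, so the fit did not place it.

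Cdkn1b, the gene of p27, was lower in MSM-like cells than the mean of the other myeloid types. It was at 36.6 and 29.6 CPM in the unimmunized mice and 22.9 CPM and no UMI in the immunized mice. The floor of that count of 0 was 64.1 CPM. The other myeloid types had means of 32.7 to 107 CPM. The MSM-like range overlapped those of TBM-like (25.95 to 45.3 CPM), cDC1-like (19.7 to 45.1 CPM) and inflammatory macrophage-like cells (20.5 to 60.3 CPM). The fitted difference was -0.14 (SE 0.31) without the Malat1-low cells and -4.97 (SE 1.73) without immunized mouse 1. It went with Malat1: Malat1-low MSM-like cells had 16.7 CPM in unimmunized mouse 1 and 17.5 CPM in immunized mouse 1, whereas Malat1-high MSM-like cells of the same mice had 91.2 and 45.3 CPM. Outside the gate the Malat1-low cells had 22.3, 3.79, 10.5 and 15.2 CPM of Cdkn1b in unimmunized mice 1 and 2 and immunized mice 1 and 2, and the Malat1-high cells 80.0, 68.0, 48.9 and 52.9 CPM, with no overlap. So Malat1-low cells had more Cdkn2a and less Cdkn1b than Malat1-high cells of the same mouse, in 4 of 4 mice outside the gate. Trp53 outside the gate was likewise at 49.2, 71.9, 46.6 and 49.7 CPM in Malat1-low cells, below the 93.3, 89.5, 72.4 and 65.8 CPM of Malat1-high cells in each of the 4 mice.

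**Figure D4:**
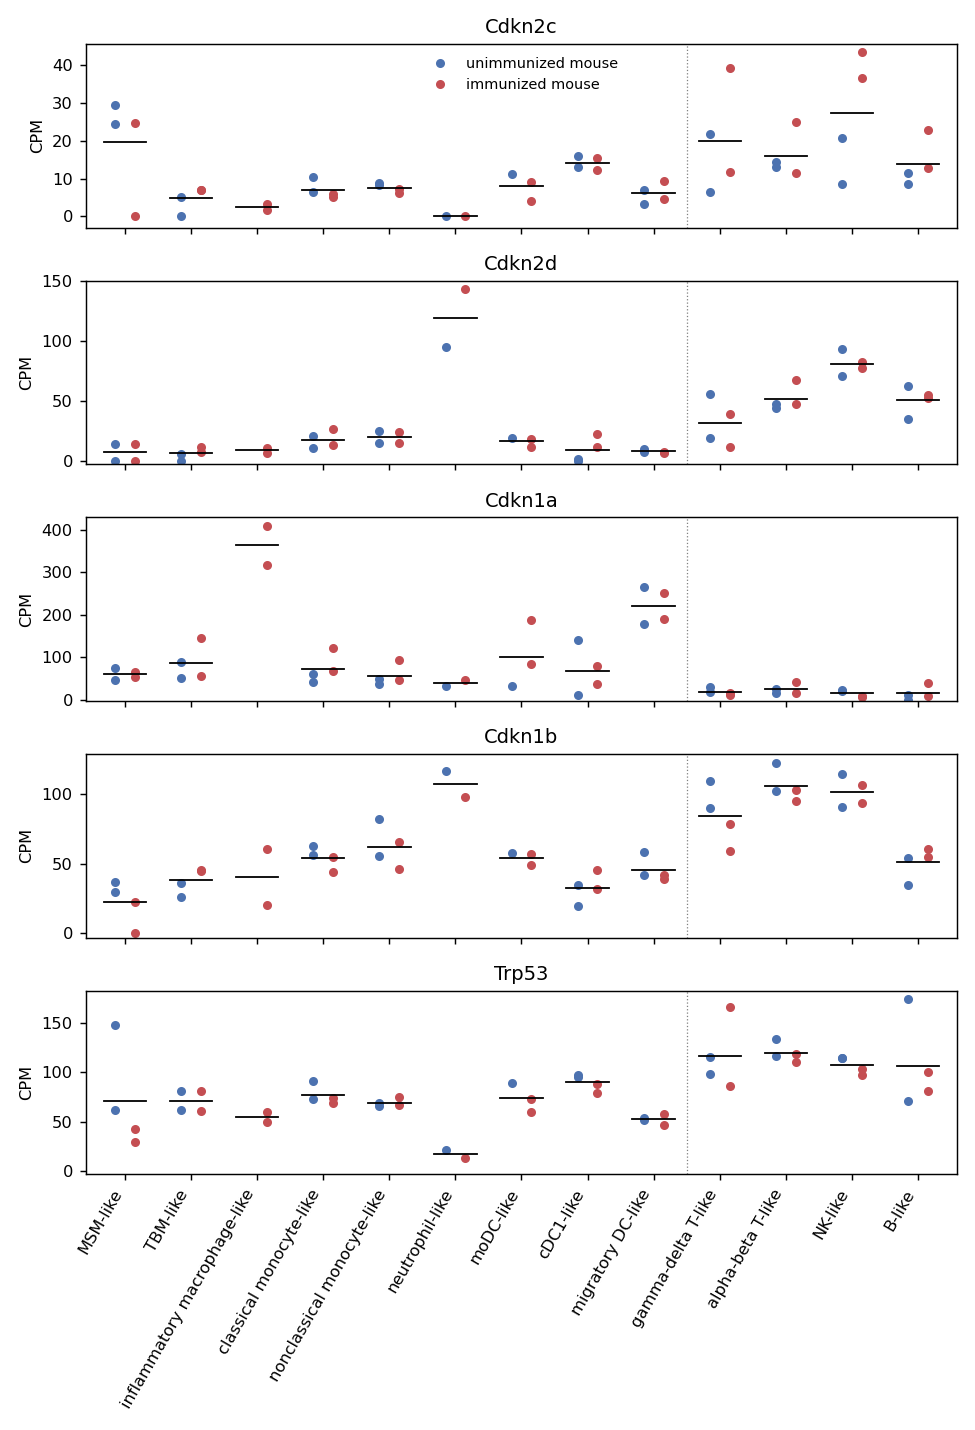
Level (CPM, linear axes) of the other 5 genes in each gated type, with 1 point per mouse (blue unimmunized, red immunized), a bar at the mean, and myeloid types left of the dotted line. Cdkn2d is at 34.8 to 93.1 CPM in alpha-beta T-like, NK-like and B-like cells and at 11.8 to 56.0 CPM in gamma-delta T-like cells, against 26.5 CPM or less in every myeloid type but the neutrophil-like, and Cdkn1a is at 318 and 409 CPM in inflammatory macrophage-like cells.

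Lymphoid and myeloid cells of the sort differed in which inhibitor RNAs they held. Of the 6 genes, 4 were higher and 1 lower in the lymphoid types (gamma-delta T-like, alpha-beta T-like, NK-like and B-like), where 42.5% of all genes tested passed in either direction, so a share of the 6 is not itself a result about the family. Cdkn2a was at 0.31 (SE 0.44) on the log2 scale. The myeloid mean included the MSM-like cells, whose Cdkn2a selected the family, so this value is a description without a p. The 4 lymphoid types came from a sort for CD11b, so by their marker RNA the sorted cells were not only myeloid.

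Cdkn2d, which encodes the INK4 protein p19 and is distinct from ARF, was higher in lymphoid cells by 1.83 (SE 0.22) on the log2 scale, with an adjusted p of 1.49e-08. NK-like cells had 70.4 and 93.1 CPM in the unimmunized mice and 82.2 and 77.4 CPM in the immunized mice. Alpha-beta T-like cells had 47.0 and 44.5 CPM against 47.8 and 67.7 CPM, and B-like cells 62.8 and 34.8 CPM against 52.3 and 54.5 CPM. Gamma-delta T-like cells varied most, with 56.0 and 19.2 CPM against 39.2 and 11.8 CPM, and 2 of these 4 values lay within the range of the myeloid types. Without unimmunized mouse 1 the lymphoid difference was 3.38 (SE 0.60). Of the myeloid types only the neutrophil-like cells were as high, with 95.2 and 143 CPM. The MSM-like, TBM-like and migratory DC-like types had means of 6.12 to 7.79 CPM, and these 3 were not separated by their spread.

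Cdkn2c was higher in lymphoid cells by 1.86 (SE 0.35), with an adjusted p of 3.3e-05 in edgeR. Without the neutrophil-like cells, whose 2 libraries held none, the difference was 0.93 (SE 0.21) with an adjusted p of 3.87e-04. NK-like cells had the highest mean, with 20.8 and 8.46 CPM in the unimmunized mice and 36.8 and 43.5 CPM in the immunized mice, which do not overlap. The log2 change with immunization in NK-like cells was 1.19 (SE 0.47), with an adjusted p of 1.00 in edgeR, where 0% of all genes passed and 437 had an unadjusted p under 0.05.

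Cdkn1b was higher in lymphoid cells by 0.66 (SE 0.12), with an adjusted p of 2.3e-05 in edgeR. Alpha-beta T-like cells were at 94.5 to 122 CPM and NK-like cells at 90.5 to 114 CPM over the 4 mice, gamma-delta T-like cells were at 59.1 to 109 CPM, and B-like cells at 34.8 to 60.2 CPM. Neutrophil-like cells, at 116 and 97.7 CPM, were as high as the T-like and NK-like cells, so the lymphoid and myeloid ranges overlapped. Without immunized mouse 1 the difference was 1.06 (SE 0.27), and in capture 1 alone it was 0.44 (SE 0.16). Trp53 was higher by 0.81 (SE 0.10), with an adjusted p of 2.98e-08. It was at 110 to 133 CPM in alpha-beta T-like cells and 96.7 to 114 CPM in NK-like cells, against 47.1 to 58.0 CPM in migratory DC-like cells and 79.5 to 97.2 CPM in cDC1-like cells, which overlap the NK-like values. MSM-like cells of unimmunized mouse 2 were at 148 CPM. Neutrophil-like cells had the least Trp53, 21.2 and 13.0 CPM, and without them the lymphoid difference was 0.45 (SE 0.09) with an adjusted p of 5.05e-05 in edgeR, while it was 1.60 (SE 0.24) with a hashtag share of at least 90%.

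Cdkn1a, the gene of p21 and the main p53 target among the inhibitors, was lower in lymphoid cells by 2.28 (SE 0.40) on the log2 scale, where the fitted value is -2.28 with an adjusted p of 1.1e-05. Without unimmunized mouse 1 it was -3.43 (SE 0.59). No lymphoid type had a mean over 24.4 CPM. Inflammatory macrophage-like cells, which reached 10 cells in the immunized mice only, with 2 cells in unimmunized mouse 1, had the highest level of the 13 types with 318 and 409 CPM. Migratory DC-like cells had 265 and 179 CPM in the unimmunized mice and 189 and 251 CPM in the immunized mice, below both of those values. MSM-like cells were at 47.5 and 74.0 CPM against 52.8 and 64.1 CPM. Trp53 did not follow Cdkn1a, since its lymphoid difference had the opposite sign.

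**Figure D5:**
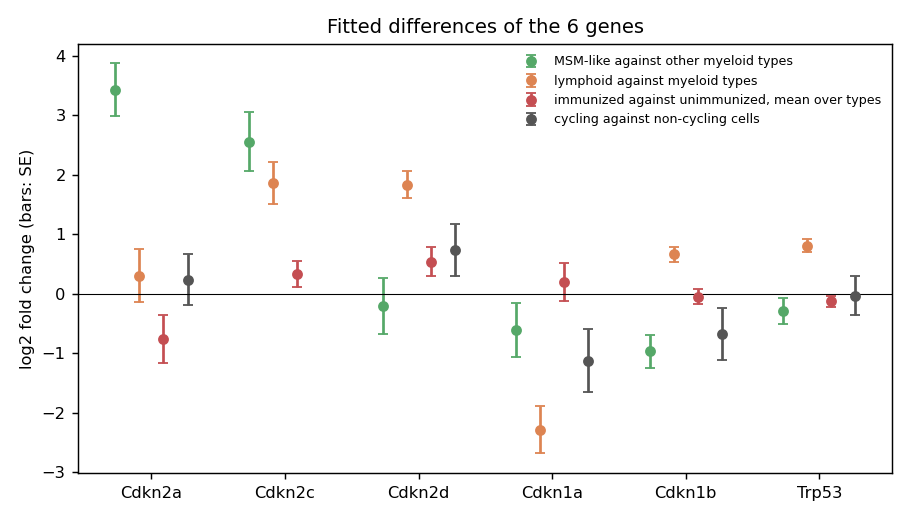
Fitted log2 differences of the 6 genes in 4 comparisons, with bars of 1 SE; Cdkn2c was too low to be tested between cycling and non-cycling cells. In the comparison of lymphoid with myeloid types Cdkn1a is at -2.28 and the other 5 genes lie between 0.31 and 1.86, and the values of MSM-like cells are a description since they selected the family.

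Genes that act with the inhibitors were read from fixed lists. Between lymphoid and myeloid types 42.5% of all 11629 genes tested passed in edgeR, 3064 higher and 1874 lower. So nothing is read from the number of list genes that passed. Of the 7 tested genes of D and E cyclins and their kinases, 4 were higher and 1 lower in lymphoid types, with a list median of 0.73 on the log2 scale against 0.21 for all genes. Ccnd2 rose by 3.32 (SE 0.22), Ccnd3 by 0.66 (SE 0.10), Cdk4 by 0.73 (SE 0.11) and Cdk6 by 1.62 (SE 0.33), whereas Ccnd1 fell by 1.43 (SE 0.30), all passing in edgeR. So the D-type cyclins differed in direction, as the inhibitors did. Of the 10 tested RB and E2F genes, 2 were higher, among them Rbl2 at 1.15 (SE 0.15), and 2 lower, among them E2f1 at -1.23 (SE 0.29). The list median was 0.16 against 0.21.

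Among genes that control p53, 4 of 6 tested were higher in lymphoid types and none lower, including the kinase gene Atm at 2.56 (SE 0.24) and Mdm4, which encodes a partner of MDM2, at 0.66 (SE 0.09). The list median was 0.51. This count and those of the next lists also stand beside the 42.5% of all genes that passed, and nothing is read from them. The 19 tested p53 target genes went both ways, with 5 higher, 4 lower and a median of 0.14: Sesn1 was at 1.69 (SE 0.22) and Trp53inp1 at 2.01 (SE 0.24), but Pmaip1, the gene of the cell death protein NOXA, was at -2.92 (SE 0.30). Of 13 genes known to regulate the Cdkn2a locus, 5 were higher and 2 lower, with a median of 0.47. Cbx7, a Polycomb repressor of the locus, was at 1.66 (SE 0.18) and Ets1 at 4.63 (SE 0.15), while the histone demethylase gene Kdm6b was at -0.67 (SE 0.13). Of 8 genes for turnover of the inhibitors, 2 were higher and none lower, with a median of 0.27.

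In MSM-like cells against the other myeloid types the same lists gave, as a description beside the 29.2% above, 3 locus regulators higher and 1 lower of 13. Bmi1, a Polycomb repressor of Cdkn2a, was at 1.69 (SE 0.26), so it was higher in the type with the highest Cdkn2a, and Kdm6b was at -1.64 (SE 0.28). Cdkn2b, the neighbour of Cdkn2a and the gene of the INK4 protein p15, was at 2.81 (SE 0.91), but its mean level in Malat1-low MSM-like cells was 13.2 CPM from 7 UMIs. The 19 p53 target genes had a median of 0.10, close to 0.09 for all genes, with 1 higher and 2 lower. Of 23 cell division genes 12 were higher and none lower. Counts of such genes were small. In Malat1-low MSM-like cells Mki67 was at 2.56 CPM from 5 UMIs and Top2a at 17.8 CPM from 28 UMIs. Malat1-high cells outside the gate had 12.4 and 8.78 CPM, so these 2 genes went opposite ways, and whether more cells divided was not tested.

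Immunization changed none of the 6 genes past the threshold. Averaged over the types that all 4 mice had, 6.09% of all genes passed and 0 of 6 of these, in edgeR. That fit had no term for the mouse, so libraries of 1 animal counted as independent. Its p-values therefore do not measure the spread of 2 mice against 2. An unadjusted p under 0.05 was held by 2292 of the 11629 genes tested and by 1 of the 6, a count from which nothing is read. That gene was Cdkn2d, with 0.54 (SE 0.24), an unadjusted p of 0.0282 and an adjusted p of 0.182 in edgeR. Its value was -0.66 without immunized mouse 1 and 0.76 without immunized mouse 2. Cdkn2a was at -0.76 (SE 0.40), with an adjusted p of 0.301. Its direction rested on single mice: without unimmunized mouse 1 it was 0.18, and without immunized mouse 1 it was -2.51. In classical monocyte-like cells Cdkn2a was at 15.04 and 4.30 CPM in the unimmunized mice and 5.10 and 1.07 CPM in the immunized mice, and in nonclassical monocyte-like cells at 17.4 and 2.06 CPM against 3.59 and 0.976 CPM. In both types unimmunized mouse 1 was the highest and the groups overlapped. With a count of 0 taken as 0, the groups did not overlap in 3 of the 10 types, of which none passed. The share of all genes without overlap was not counted. With 2 mice against 2, groups can separate with no effect, so nothing is read from these 3. TBM-like cells had 10.4 and 35.9 CPM against 0.768 and 2.90 CPM, from 1 to 10 UMIs a mouse, and gamma-delta T-like cells had 29.8 and 38.4 CPM against 15.7 CPM and no UMI. B-like cells went the other way, with 8.56 CPM and no UMI against 17.7 and 14.3 CPM. The counts of 0 in gamma-delta T-like and B-like cells allow up to 35.5 and 34.8 CPM. With these limits the groups overlap in both types. Outside these types, cells of more than 1 gate had 31.7 and 17.7 CPM against 7.31 and 2.29 CPM, and the Malat1-high cells outside the MSM-like gate, given above, were also lower in both immunized mice, with cell types in unequal shares.

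In MSM-like cells 1 gene of 11629 passed between immunized and unimmunized mice, 0.0086% of those tested, and it was none of the 6. Cdkn2a differed by -0.12 (SE 0.77), less than its SE, and its groups overlapped. Trp53 was at 62.4 and 148 CPM in the unimmunized mice and 29.9 and 42.7 CPM in the immunized mice. These values do not overlap, but the 42.7 CPM of immunized mouse 2 rested on 2 UMIs. Its 95% Poisson interval, 5.18 to 154 CPM, takes in both unimmunized values. The log2 difference of Trp53 was -1.15 (SE 0.39), with an unadjusted p of 0.00544 and an adjusted p of 0.591 in edgeR, so it did not pass. The lowest adjusted p of the other 4 was 0.891, for Cdkn1b. The difference of the immunization effect between MSM-like and the other types passed for 0 of the 6 and for 0% of all genes in edgeR, and none in DESeq2, with 440 genes at an unadjusted p under 0.05.

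Within single types 0 of 60 pairs of a gene and a type passed in edgeR or DESeq2, and 5 pairs had an unadjusted p under 0.05 in edgeR. From 437 (NK-like) to 1616 (migratory DC-like) of the 11629 genes had an unadjusted p under 0.05 in a type, so nothing is read from the 5 pairs. Of all genes, 0% passed in gamma-delta T-like, NK-like and TBM-like cells, 0.0086% in B-like, 0.0516% in alpha-beta T-like and 0.327% in nonclassical monocyte-like cells. The nearest was Cdkn2d in cDC1-like cells, at 1.61 CPM and no UMI in the unimmunized mice and 21.9 and 11.9 CPM in the immunized mice. Its log2 difference was 3.65 (SE 0.91), with an adjusted p of 0.051, where 0.559% of all genes passed. It passed under 6 of the alternatives and did not pass under 9, with a log2 difference of 3.15 to 7.91 over the settings. The unimmunized value of 1.61 CPM rested on 2 UMIs. Cdkn1a in classical monocyte-like cells was at 59.4 and 40.8 CPM in the unimmunized mice and 67.0 and 123 CPM in the immunized mice, without overlap, and did not pass where 1.64% of genes did. In migratory DC-like cells, where 2.16% of genes passed, Cdkn1a and Cdkn2a overlapped between the conditions.

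Cycling cells, called by 2 or more UMIs of the cell division list after thinning to 1000 UMIs, were compared with cells that held none, of the same type and mouse, in 4 pairs. Each pair came from 1 mouse and 1 type: B-like and migratory DC-like cells of immunized mouse 1, and MSM-like and NK-like cells of unimmunized mouse 1. Of 4638 genes 3.04% passed, and 0 of the 5 inhibitor genes tested did, while all 15 tested cell division genes were higher, as their use in the split required. Cdkn1a was at 0, 83.3, 27.5 and 44.9 CPM in cycling B-like, MSM-like, NK-like and migratory DC-like cells and at 11.2, 47.8, 23.7 and 195 CPM in the others. Its log2 difference was -1.12 (SE 0.53), with an adjusted p of 0.326. The 4 pairs come from 2 mice and were treated as replicates. Leaving out either mouse left 2 pairs of 1 animal, with values of -2.63 and 0.15 that carry no test over mice. Cdkn2c was too low to be tested, and its levels were 14.8, 222, 82.6 and 29.9 CPM in the cycling cells against 12.1, 14.8, 17.1 and 8.56 CPM, higher in 4 of 4 pairs, from 2 to 9 UMIs in each cycling library. Cdkn1b, which did not pass, was lower in 4 of 4 pairs. It was at 44.4, 0, 82.6 and 0 CPM in the cycling cells against 57.7, 36.2, 92.1 and 42.1 CPM. Cdkn2d was higher in the cycling cells of all pairs but the B-like. Nothing is read from these directions. Cdkn2a was at 34.5, 139, 27.5 and 44.9 CPM in cycling cells against 14.9, 98.8, 31.3 and 57.8 CPM, so cycling and non-cycling cells of a type did not differ in one direction.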

How the data were processed

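The authors aligned the reads of 2 captures to mm10 with Cell Ranger 4.0.0, merged them into 1 gene matrix, and counted hashtags and antibodies with CITE-seq-count; the deposited values are raw UMI counts. From these, 1242 of 18662 barcodes were left out because both captures held their sequence, and cells were kept with at most 25% mitochondrial UMIs and with 1 hashtag holding at least 80% of 10 or more hashtag counts. No doublet caller was run. A cell entered a type with at least 3 UMIs of at least 2 markers and a score 1 log2 unit above any other type. Counts were summed per mouse and type (47 libraries of 10 or more cells, 11629 genes) and tested with edgeR 4.0.16 (quasi-likelihood, TMM scaling, Benjamini-Hochberg, R 4.3.3), with 1 coefficient per type and condition. The SE of a log2 difference is its size over the square root of the F statistic, so it is not meaningful where a difference could not be estimated. DESeq2 1.42.0 and Seurat 5.3.0 (HTODemux) gave alternatives. The mice pair the libraries, since types of 1 mouse come from the same animal, and the cycling fit had that block. The genes named were the 6 inhibitor genes, genes of the lists and markers, and the 8 genes most like Cdkn2a; the leading genes of Malat1-low cells were chosen after their values were seen. The members, lists and gates were chosen with earlier results of these data known. Exon positions come from GENCODE on GRCm38. With 2 mice per condition, p-values measure the spread between libraries of these animals only. Apart from the cycling fit, the reported fit had no term for the mouse. So where immunization was averaged over types, libraries of 1 animal counted as independent. Those p-values do not measure the spread of 2 mice against 2. Poisson and binomial intervals and limits from a count of 0 (3 counts) cover counting error only. In a sort, fewer cells of a type and less RNA per cell are told apart only within the gates.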

Additional observations from a re-analysis of the deposited data

Results flagged for a closer look

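Cdkn2a was present in barcodes that no fitted comparison between types or conditions used. The kept barcodes of no gate had 81.8 CPM with all mice summed (1072 UMIs in 2131 barcodes, 95% Poisson interval 77.0 to 86.8 CPM), those of more than 1 gate had 6.46 CPM (212 UMIs in 2428 barcodes), and the 6523 barcodes that were not kept had 29.1 CPM (2379 UMIs). All 3 lie above the limit that a count of 0 allows. The kept barcodes had a known mouse and are described by mouse above, while those not kept did not all have one. No difference was tested.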

How the results depend on the processing

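The lymphoid difference kept its direction and stayed past the threshold for Cdkn2c, Cdkn2d, Cdkn1a, Cdkn1b and Trp53 under all 18 alternatives run, while sizes moved: Cdkn2d ranged from 1.46 to 3.38, Cdkn1a from -3.43 to -2.03, Cdkn1b from 0.44 to 1.06, Trp53 from 0.45 to 1.60 and Cdkn2c from 0.93 to 1.99. Of the rest, 2 alternatives were chosen after seeing the data, the ones without Malat1-low barcodes and without neutrophil-like cells, and where a value changed the cause was not tested. Genes passing in MSM-like against other myeloid types numbered 3390, and 2036 in capture 1 alone, 2168 in capture 2 alone, 240 without Malat1-low barcodes and 1228 to 3317 with 1 mouse left out. Lymphoid against myeloid gave 4938, and 2755 to 4454 with 1 mouse left out. Immunization over types gave 708, and 1253 with at least 3 markers, 253 in capture 2 alone and 298 to 970 with 1 mouse left out. In MSM-like cells immunization gave 1, and 58 with no filter on low counts, 0 with DESeq2, with at least 3 markers or in cells with at least 2000 UMIs, 2 with a gate margin of 2 or without the 5% of cells with most UMIs, and 0 to 42 with 1 mouse left out. Its difference from other types gave 0, and 14 with no filter and 0 to 19 with 1 mouse left out. Pairs of an inhibitor gene and a type numbered 0, and 4 with no filter, 1 with HTODemux, with at least 2000 UMIs or with a mitochondrial limit of 10%, and 0 to 3 with 1 mouse left out. Cycling against non-cycling cells gave 141, and 261 with no filter, 82 with DESeq2, 79 with at least 3 markers and 55 to 139 with 1 mouse left out; it could not be fitted in either capture alone.

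Because the libraries of a mouse are paired by animal, the mouse was also used as a replicate block. The block gave 3494 genes for MSM-like cells, 4956 for lymphoid types and 0 for the difference in immunization, and changed no call of the 6 genes. Without the replicate block the cycling comparison gave 40 genes.

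In MSM-like against other myeloid types, Cdkn1b lost the threshold in 5 alternatives and Cdkn2c in 3, while Cdkn1a gained it with no filter and Trp53 without neutrophil-like cells. Directions turned for values that did not pass or served as description. In MSM-like cells Cdkn2d became 0.18 without neutrophil-like cells and 0.78 in capture 2 alone. Trp53 became 0.59 with a hashtag share of at least 90%, 0.16 in capture 1 alone and 0.33 without Malat1-low barcodes, and Cdkn2c ranged from -1.91 to 3.03 with 1 mouse left out. Cdkn2a in lymphoid types became -0.24 in capture 2 alone and 1.32 with at least 3 markers, and ranged from -0.44 to 0.28 with 1 mouse left out. With immunization over types it became 0.17 in capture 2 alone and ranged from -2.51 to 0.18, and Cdkn2d ranged from -0.66 to 2.63. In MSM-like cells the immunization difference of Cdkn2a became 0.028 with a hashtag share of at least 90% and 0.82 with at least 3 markers, and ranged from -0.89 to 0.24. Cdkn1a in cycling cells became 0.18 with at least 3 markers and ranged from -2.63 to 0.15. For immunization over types, Cdkn2a and Cdkn2d each passed in 2 alternatives with the direction unchanged. Those of Cdkn2a included no filter, at -0.71 with an adjusted p of 0.0186 in edgeR. Those of Cdkn2d included capture 1 alone, at 0.83 with an adjusted p of 0.0392 in edgeR. Depth was low in the MSM-like cells of unimmunized mouse 2 and immunized mouse 2, with 67570 and 46793 UMIs.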
